A study of Homo sapiens with 2 samples.

Results

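The genes described here encode the subunits of the mitochondrial respiratory chain, the enzymes that carry electrons from NADH and succinate to oxygen and use the proton gradient so built to make ATP. Members were chosen by symbol alone, as genes that begin with NDUF and a letter A, B, C, S or V before a digit, SDHA to SDHD, UQCR genes, COX4 to COX8 genes, ATP5 genes, and the mitochondrial genes of the MT-ND, MT-CO, MT-CYB and MT-ATP families. This gave 103 of 36601 counted genes, of which 90 are nuclear and 13 lie in mitochondrial DNA. H1, an established line of human embryonic stem cells, was differentiated with growth factors for 12 days and then kept on OP9 stromal feeder cells, which carry the Notch ligand DLL4. CD7+ cells were sorted after 10 days of co-culture (the library titled pro_Tcells) or after 14 days (the library titled Tcells), and each day gave 1 droplet library read from the 3′ ends of transcripts. Both libraries come from the same line, sorted on separate days, and CD34+ cells were purified before the co-culture.

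Complex I takes electrons from NADH, complex II from succinate, complex III passes them to cytochrome c, complex IV passes them to oxygen, and complex V is the ATP synthase. All of these but complex II mix subunits made from nuclear genes with subunits made from mitochondrial DNA, so their assembly needs both genomes. Resting and dividing blood cells are known to differ in how far they rely on respiration, and dividing T cells build new mitochondria.

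The deposited values are whole-number counts of unique molecular identifiers (UMIs), each standing for 1 captured transcript. The libraries held 217681173 UMIs at day 10 and 169758367 at day 14. A barcode was kept as a cell if it held between 1000 and 7000 genes and no more than 18% of its UMIs were mitochondrial, which left 12114 cells at day 10 and 8929 at day 14, with medians of 16173.5 and 15029 UMIs, and 29 barcodes occurred among the kept cells of both libraries. Levels are UMIs summed over cells, divided by all UMIs and multiplied by 1000000 (CPM), and a log2 ratio of a gene adds 5 CPM to both levels. A gene is called higher or lower when it passes 1.5-fold, among genes at 10 CPM or more in either group compared. With 1 library per day there was no replicate and no test, and the exact 95% Poisson intervals cover counting error only. The day and the library cannot be told apart.

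The summed level of the chain stood at nearly the same value on both days. The nuclear set held 26769.7 CPM (interval 26747 to 26792) at day 10 and 26829 CPM (26803 to 26855) at day 14, a log2 ratio of 0.0032. The mitochondrial set held 66684 CPM (66649 to 66719) and 67094 CPM (67053 to 67135), a log2 ratio of 0.0089. Both ratios lay between -0.028 and 0.082 over all other scalings and choices of cells. Complex II was the only nuclear-encoded complex whose summed level differed by more than 0.1 on the log2 scale, with 339 CPM at day 10 against 369 CPM at day 14 (log2 ratio 0.12). Complex I stood at 8585 and 8185 CPM, complex III at 2889 and 2793 CPM, complex IV at 6489 and 6773 CPM and complex V at 8462 and 8701 CPM. In single cells the nuclear set took a median of 2.68% of UMIs at day 10 (quartiles 2.47 and 2.88) and 2.61% at day 14 (2.30 and 2.92). A cell held a median of 2.47 mitochondrial UMIs per nuclear UMI of the chain at day 10 and 2.45 at day 14.

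Behind these even sums, single nuclear members differed between the days in both directions. Of the 90, 78 stood at 10 CPM or more on at least 1 day, and of these 8 were called higher and 4 lower at day 14. Over all 8295 genes at that level, 12% were called higher and 9.63% lower, against 10.3% and 5.13% of the members, so the members were called no more often than other genes. Scaling by the median ratio of abundant genes gave 9 members higher and 1 lower, with ATP5MC1 as the 1 lower member. Of all genes 13.8% were called higher and 7.94% lower with that scaling. The members called higher were ATP5F1E, NDUFA1, NDUFB3, NDUFB1, NDUFA3, NDUFB4, COX6C and ATP5PD, and those called lower were ATP5MC1, NDUFV1, COX5A and NDUFA9. UQCRB, at a log2 ratio of 0.56, and NDUFB10, at -0.53, lay closest to the limit without passing it.

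**Figure D1:**
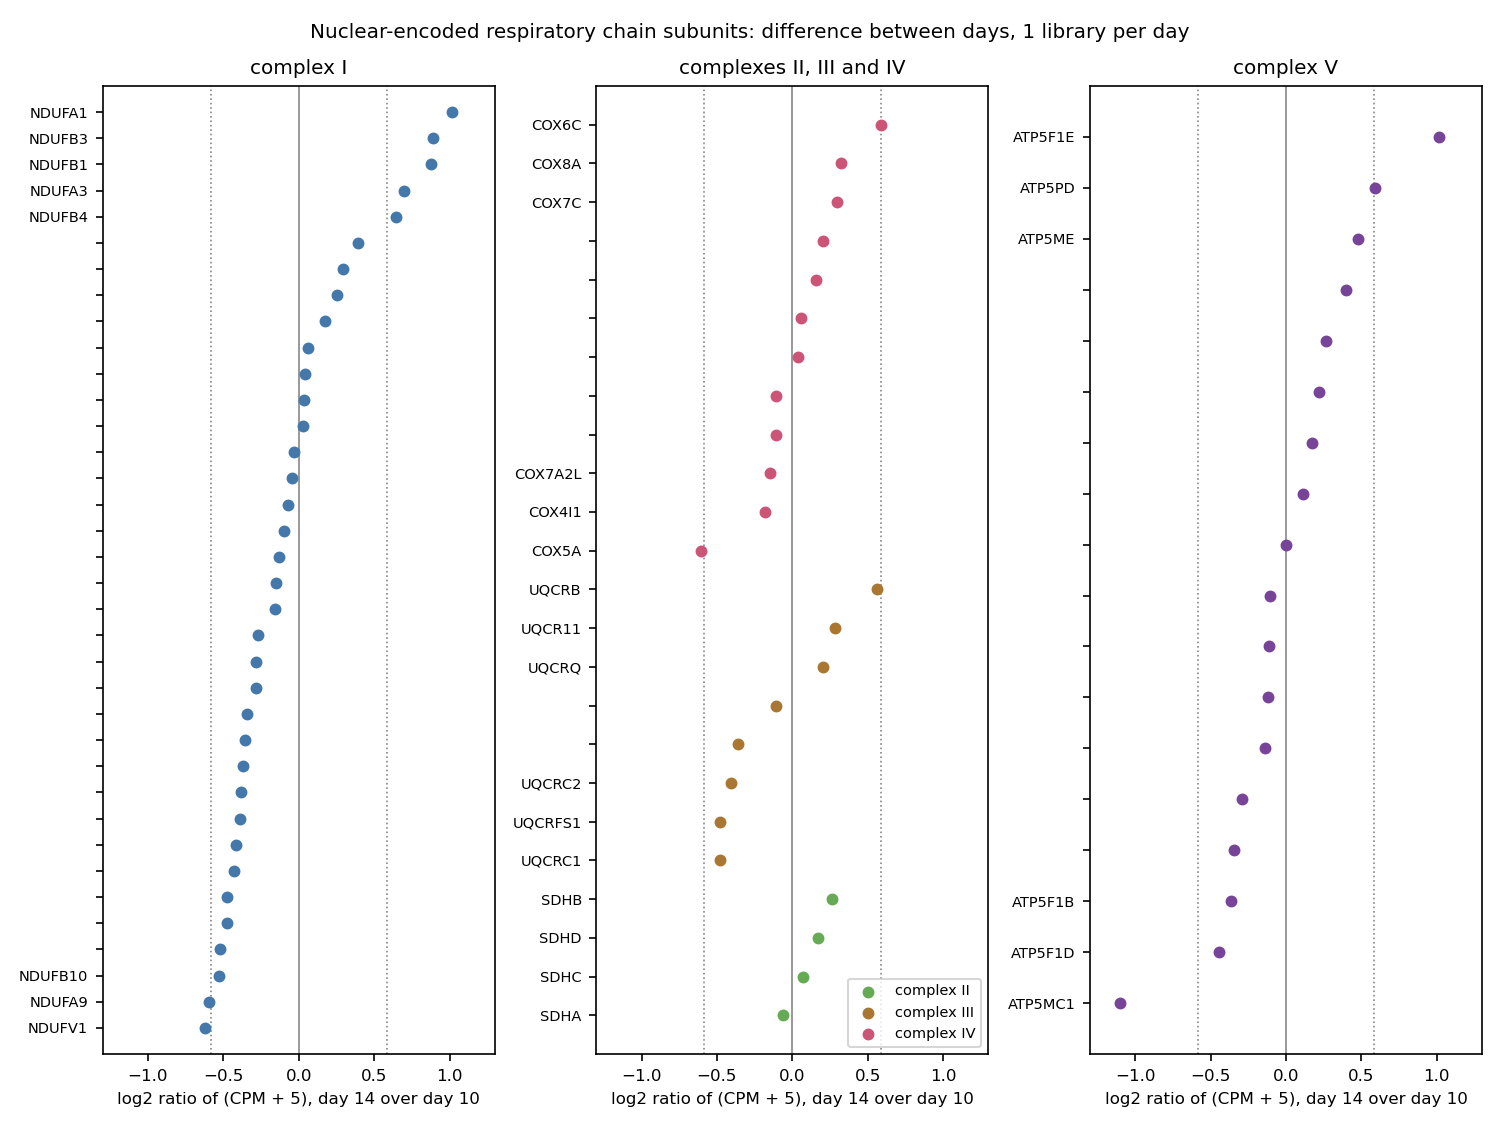
Log2 ratio of day 14 over day 10 (x axis, CPM + 5) for each of the 78 nuclear subunit genes at 10 CPM or more, 1 point per gene, in panels by complex, with dotted lines at 1.5-fold and names for the called members and for the 3 highest and 3 lowest of each complex. Most points lie between the dotted lines, and the points of complexes I and V run from ATP5MC1 at -1.10 to NDUFA1 and ATP5F1E at 1.02.

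ATP5F1E, the epsilon subunit of the F1 part of ATP synthase, stood at 647 CPM (interval 643 to 650.0) at day 10, against 1314 CPM (1308 to 1319) at day 14, a log2 ratio of 1.02. The gene lies on the minus strand of chromosome 20 of GRCh38 from 59025475 to 59032345. NDUFA1, a small membrane subunit of complex I, stood at 136 CPM (134 to 137) and 279.6 CPM (277 to 282), again a log2 ratio of 1.02, and lies on the X chromosome from 119871832 to 119876662. These were the widest upward differences among the members, and they remained called with a 2-fold limit.

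The opposite end was held by ATP5MC1, which encodes the c subunit of the membrane ring that turns as protons pass through ATP synthase. It stood at 391 CPM (389 to 394) at day 10, against 179.9 CPM (178 to 182) at day 14, a log2 ratio of -1.10, and lies on chromosome 17 from 48892765 to 48895871. ATP5MC2 and ATP5MC3 encode the same mature protein with other import signals. ATP5MC2 stood at 690.3 and 634 CPM (log2 ratio -0.12), and ATP5MC3 at 1027 and 806 CPM (-0.35). So each of the 3 genes for the ring was below 0, and only the first passed the limit.

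The stretches below lie upstream of the starts of both genes with the widest upward differences, of ATP5PD, and of the c ring genes ATP5MC1 and ATP5MC2. They are shown so that members with ratios in both directions can be read side by side at the DNA level. Each is the exon-free stretch nearest to the RefSeq start (GRCh38.p14, at most 120 bases, 5′ to 3′ on the gene's strand). Capitals mark CCGGAAG, the core letters bound by ETS factors such as GABPA, or GCGCATGC, the core letters bound by NRF1, on either strand. Both factors are known regulators of respiratory genes.
ATP5F1E (chr20:59032346-59032465, minus strand): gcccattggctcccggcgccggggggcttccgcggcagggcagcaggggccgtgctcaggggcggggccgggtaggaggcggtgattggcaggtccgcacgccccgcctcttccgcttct
NDUFA1 (chrX:119871734-119871831, plus strand): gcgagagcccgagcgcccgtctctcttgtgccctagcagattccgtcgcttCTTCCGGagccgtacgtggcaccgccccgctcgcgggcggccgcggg
ATP5PD (chr17:75046986-75047105, minus strand): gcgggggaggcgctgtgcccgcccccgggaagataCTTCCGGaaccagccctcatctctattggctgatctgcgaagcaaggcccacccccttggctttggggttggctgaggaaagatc
ATP5MC1 (chr17:48892678-48892764, plus strand): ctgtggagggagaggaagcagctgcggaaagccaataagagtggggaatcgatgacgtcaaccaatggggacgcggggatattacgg
ATP5MC2 (chr12:53676084-53676175, minus strand): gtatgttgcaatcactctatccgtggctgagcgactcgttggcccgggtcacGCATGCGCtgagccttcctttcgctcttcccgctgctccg
In these stretches NDUFA1 and ATP5PD hold the ETS letters, ATP5MC2 holds the NRF1 letters, and ATP5F1E and ATP5MC1 hold neither. ATP5PD had the lowest ratio of the members called higher. NDUFB3 and NDUFA3, with wider differences, hold neither and are not printed.

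RefSeq promoters matched 63 of the 78 members, and the 250 bases before each start were searched on both strands for the same letters and for AAGATGGCG, the letters of YY1. The letters GCGCATGC were found in 12 of the 63 (19.0%), against 5.59% of 6618 other genes at 10 CPM or more and 2.81% of all 27305 promoters. CCGGAAG was found in 25.4%, against 19.4% and 8.82%. AAGATGGCG was found in 1.59%, against 1.16% and 0.641%. Of the 7 matched members called higher, NDUFB4 held the NRF1 letters, NDUFA1 and ATP5PD the ETS letters, and 4 held none of the 3. The 4 called lower also held none. None of the 3 was found in 63.5% of the 63 members and in 75.4% of the 6618 other genes. No contrast between higher and lower members can be read from such small counts. These are matches of letters, described without a test, and binding was not measured.

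By role, the nuclear core subunits of complexes I and III lay below 0, with 1 of them past the limit and with NDUFS1 above 0 under scaling by the median ratio. The 7 nuclear core subunits of complex I, which hold its flavin and iron-sulfur centres, had a median of -0.38, with 0 above 0 and 7 below (1 and 6 with scaling by the median ratio). NDUFV1, which binds NADH, stood at 169 CPM at day 10, against 108 CPM at day 14 (log2 ratio -0.62) and was the only core subunit past the limit. NDUFS7, which carries the last iron-sulfur cluster before ubiquinone, stood at 242 and 167 CPM (-0.52), short of the limit. The 3 nuclear members taken as core subunits of complex III had a median of -0.48. They lay below 0 under every scaling, and none passed the limit. CYC1, the cytochrome c1 of this complex, falls outside the rule by symbol and is given below with other chain components. Of these, UQCRC1 stood at 169 and 119 CPM (-0.48), UQCRC2, the other large core protein, at 186 and 139 CPM (-0.41), and UQCRFS1, the Rieske iron-sulfur protein, at 318 and 227 CPM (-0.48). The core subunits given here with levels are also long, from 639 coding bases (NDUFS7) to 1440 (UQCRC1). All nuclear members over 600 and up to 900 bases had a median of -0.34, and those over 900 and up to 1500 bases -0.42. Members over 1500 bases had a median of -0.18. NDUFS1 lay nearest to 0 of the complex I core subunits, at -0.047. Role and coding length thus overlap, and the part of each was not tested.

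Complex I as a whole had 13 members above 0 and 23 below, with 5 called higher and 2 lower. NDUFB3 stood at 166 and 313 CPM (log2 ratio 0.89). NDUFB1 stood at 119 and 224 CPM (0.88). Both are small single-span subunits of the membrane arm, and their ratios were close to that of NDUFA1. NDUFA3 stood at 72.0 and 119.7 CPM (0.70), and NDUFB4 at 258 and 406 CPM (0.65). On the other side NDUFA9, an accessory subunit near the quinone site, stood at 152 and 99.0 CPM (-0.60). NDUFB10, also of the membrane arm, stood at 344 and 237 CPM (-0.53), so the accessory subunits held both directions.

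Complex II, the link between the citric acid cycle and the chain, had no member past the limit. SDHB, its iron-sulfur subunit, stood at 75.2 and 91.2 CPM (0.26). SDHD, a membrane anchor, stood at 94.5 and 107 CPM (0.17), and SDHC, the other anchor, at 100.4 and 105 CPM (0.068). SDHA, the flavoprotein, stood at 68.8 and 65.9 CPM (-0.059), which turned above 0 with scaling by the median ratio. In complex III the small subunits UQCRB and UQCR11 stood higher at day 14, at 439 and 650.1 CPM (0.56) and at 264 and 323 CPM (0.28), and UQCRQ at 249.9 and 289 CPM (0.20). None of the 8 measured complex III members passed the limit.

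In complex IV, 1 of 12 members was called higher and 1 lower. COX6C, a small membrane subunit, stood at 424 and 640.3 CPM (0.59). COX5A, the matrix-side subunit that binds thyroid hormone, stood at 552 and 361 CPM (-0.60). COX8A and COX7C were nearest to COX6C, at 531 and 665 CPM (0.32) and at 861 and 1061 CPM (0.30). COX4I1 stood at 964 and 851 CPM (-0.18) and COX7A2L, a factor of supercomplexes, at 204 and 184 CPM (-0.15). In complex V, the F1 part had 4 of 5 members below 0 with ATP5F1E as the exception, and its catalytic beta subunit ATP5F1B stood at 697 and 540.0 CPM (-0.37). ATP5F1D, the delta subunit of the same part, stood at 521 and 382 CPM (-0.44). ATP5PD, of the outer stalk, stood at 131 and 199 CPM (0.59), and ATP5ME, of the membrane part, at 167 and 235 CPM (0.48). ATP5IF1, the inhibitor of ATP hydrolysis, stood at 445 and 519 CPM (0.22).

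The tissue isoforms were almost silent. COX4I2, the isoform of lung and low oxygen, held 11 UMIs at day 10 and 52 at day 14. COX6A2, of heart and muscle, held 0 UMIs at day 10, where a count of 0, taken as at most 3 UMIs, allows up to 0.0143 CPM, and 28 UMIs at day 14. COX7A1, also of muscle, held 12 UMIs and then 0, which allows up to 0.0195 CPM. The testis isoforms COX6B2, COX8C and COX7B2 held 136 and 134, 8 and 10, and 0 and 0 UMIs. Their common partners COX6A1, COX6B1, COX7A2 and COX7B stood between 373 and 507 CPM on both days, with log2 ratios from 0.039 to 0.20. NDUFA4, a subunit of complex IV, stood at 758 and 701 CPM (-0.11) while its relative NDUFA4L2 held 29 and 40 UMIs. UQCRHL and ATP5MGL, near copies of UQCRH and ATP5MG, held 309 and 208 and 193 and 150 UMIs, and reads may be shared within each pair. The last 3 members under 10 CPM, the noncoding NDUFA6-DT, NDUFB2-AS1 and NDUFV2-AS1, reached at most 3.06 CPM.

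The ratio of a nuclear member between the days ran with the length of its coding sequence. Over the 78 members, Spearman's rho of the log2 ratio with log10 coding length was -0.64 and Pearson's r was -0.57. This is a correlation across genes that share the same 2 libraries, and genes are not independent replicates. Over 7900 other genes with a coding length the same rho was 0.098. The 22 members of at most 300 coding bases had a median log2 ratio of 0.27, with 6 called higher and 0 lower. The 7 members between 900 and 1500 bases had a median of -0.42, with 0 called higher and 2 lower, where 11.3% of other genes of that length were called lower. The 4 members over 1500 bases broke the order, with a median of -0.18 and 0 called. The 8 members called higher ran from 153 to 483 coding bases (median 238.5), and the 4 called lower from 408 to 1392 (median 790.5).

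**Figure D2:**
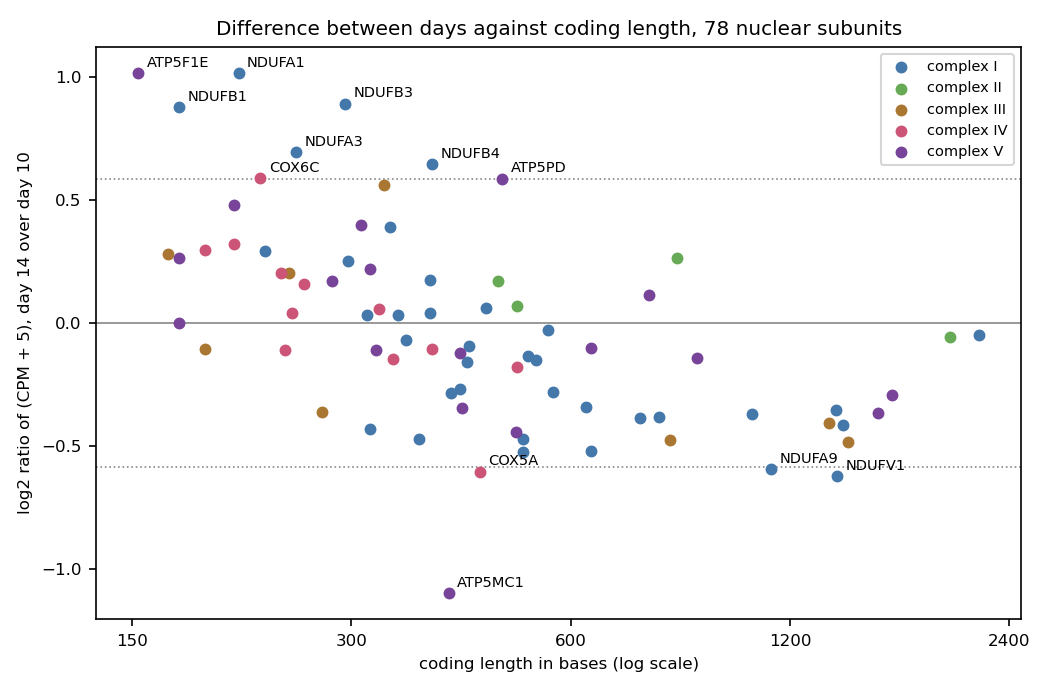
Log2 ratio of day 14 over day 10 (y axis, CPM + 5) against coding length in bases (x axis, log scale) for the 78 nuclear members, coloured by complex, with dotted lines at 1.5-fold. Members called higher are short, ATP5F1E with 153 bases the shortest, and ATP5MC1 lies apart from the others at 408 bases.

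Short genes outside the chain were checked in the same way. Of 11 genes for ribosomal proteins with at most 300 coding bases, 7 were called higher and the median was 0.65, and the 30 from 300 to 450 bases had a median of 0.12. The 191 other genes of at most 300 bases had a median of -0.014, with 17.8% called higher. Barcodes of 1 to 100 UMIs, far too shallow to be kept as cells, held 5570381 UMIs at day 10 and 8712795 at day 14. In these the members' rho with coding length was -0.72. Within the gates, described in the next paragraphs, the rho between the days ran from -0.68 in the CD3D gate to -0.55 in the CD34 gate, while between gates of 1 library it was weaker and of either sign. At day 10 it was 0.21 for CD34 over CD3D, 0.0079 for CD8B over CD3D, -0.063 for HLA-DRA over CD3D and -0.26 for GNLY over CD3D, and at day 14 it was -0.27 for GNLY over CD8B and -0.33 for CD3D over CD8B. The part of free RNA, library preparation or the cells themselves in the relation was not tested.

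The day ratios of the called members were read again inside each gate. Cells were gated once each, in the order HLA-DRA (10 or more UMIs), GNLY (10 or more), CD34 (any), CD8B (any) and CD3D (any). As background, HLA-DRA marks antigen-presenting myeloid cells, GNLY cytotoxic cells, CD34 progenitors, CD8B cells on the way to or past the double-positive stage, and CD3D the T lineage at large. Day 10 had 1264, 310, 1238, 1392 and 7750 cells in these gates and 160 in none, and day 14 had 10, 1796, 43, 5725 and 1350, with 5 in none. Of the 12 called members all 12 kept their direction in the CD34, CD3D, CD8B and GNLY gates and in the barcodes of 1 to 100 UMIs, although the gates are parts of the libraries that chose the 12. In the HLA-DRA gate, with 10 cells at day 14, 11 kept it, and ATP5PD stood at -0.61. Fewer passed 1.5-fold, namely 11 in the CD8B gate, 10 in the CD34 gate, 9 in the CD3D gate, 8 in the GNLY gate and 6 in the HLA-DRA gate.

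In the CD3D gate 6 nuclear members were called higher and 10 lower (7.69% and 12.8%), against 13.5% and 11.3% of all genes there. In the CD8B gate 8 were called higher and 3 lower (10.3% and 3.85%), against 10% and 7.64%. In the GNLY gate 5 were called higher and 11 lower (6.41% and 14.1%), against 10.9% and 12.4%. ATP5F1E, NDUFA1, NDUFB1 and NDUFA3 were called higher, and ATP5MC1, NDUFV1 and NDUFA9 lower, in each of these 3 gates. ATP5F1E stood at 624 CPM at day 10, against 1371 CPM at day 14 in the CD3D gate, 628 and 1299 CPM in the CD8B gate and 662 and 1340.3 CPM in the GNLY gate. ATP5MC1 stood at 401 and 163 CPM, 397 and 193 CPM, and 290.4 and 135 CPM in the same gates. COX5A, UQCRFS1, UQCRC1, NDUFS7, NDUFS6 and ATP5F1B were called lower in the CD3D and GNLY gates but not in the CD8B gate. There they also lay below 0, at -0.54, -0.42, -0.45, -0.44, -0.44 and -0.32 in the same order. The difference between gates was not tested.

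**Figure D3:**
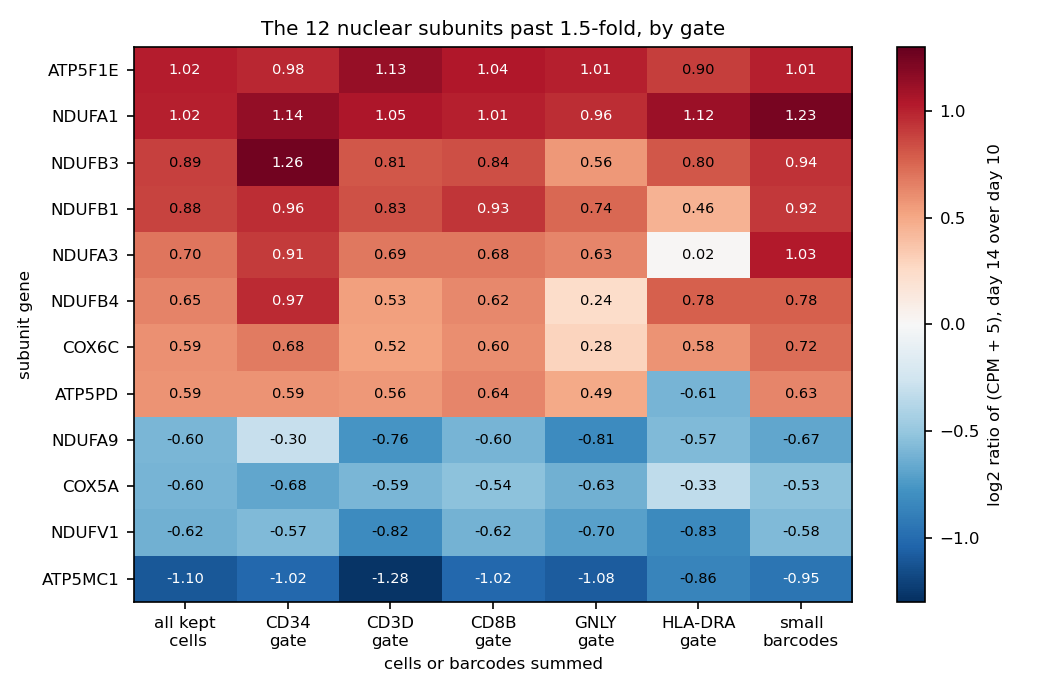
Log2 ratio of day 14 over day 10 (CPM + 5, number and colour) for the 12 nuclear members past 1.5-fold (rows), in all kept cells, in each gate and in barcodes of 1 to 100 UMIs (columns). Rows keep 1 colour across columns, except ATP5PD in the HLA-DRA gate, which has 10 cells at day 14.

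Among the 5 gates of day 10, the CD34 gate had the lowest nuclear level. Its nuclear set stood at 24527 CPM (interval 24465 to 24590), against 27220.3 CPM (27192 to 27248) in the CD3D gate, a log2 ratio of -0.15. Its mitochondrial set stood at 68153 CPM against 65913 CPM, a log2 ratio of 0.048, so the median cell held 2.79 mitochondrial UMIs per nuclear UMI of the chain in the CD34 gate and 2.39 in the CD3D gate. Scaling to UMIs outside mitochondrial and ribosomal protein genes gave -0.068 and 0.13, and the median ratio -0.061 and 0.14, so the signs held and the sizes did not. Ribosomal protein genes took 26.1% of UMIs in the CD34 gate and 22.4% in the CD3D gate, and their part in the difference was not tested beyond these scalings. Of the 78 nuclear members, 70 lay below 0 (53 with scaling by the median ratio), 0 were called higher and 0 lower, against 5.9% and 4.09% of all genes. NDUFA7 (-0.44), SDHB (-0.43) and COX8A (-0.40) were the lowest, and NDUFV3 (0.20), ATP5MC2 (0.15) and ATP5MPL (0.054) the highest. The difference was thus small in each member and spread over most of them.

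Markers of the gates were checked against their names. The progenitor, T cell, CD8B stage, killer cell and myeloid lists include the genes that set the gates, so part of these sums was fixed by gating. CD34 itself gave 129.5 CPM in the CD34 gate at day 10 and 0 CPM in the CD3D gate. HLA-DRA itself gave 5503 CPM in its gate at day 10 and 4614 CPM at day 14. Progenitor markers summed to 706 CPM in the CD34 gate and 142 CPM in the CD3D gate at day 10, but T cell markers stood at 1956 CPM in the CD34 gate, where 94.0% of cells held a CD3D UMI. At day 14 the CD34 gate went against its name, with 328 CPM of progenitor markers, 909 CPM of CD8B stage markers and a CD8B UMI in 69.8% of its 43 cells. In the HLA-DRA gate all 8 myeloid markers stood at 10 CPM or more, summing to 14014 CPM, and 41.0% of its cells held a CD3D UMI. At day 14 its 10 cells carried 10533 CPM of myeloid and 4008 CPM of T cell markers, and T cell markers were thus mixed with myeloid ones. The 160 ungated cells of day 10 carried 1335 CPM of erythroid and mast cell markers, and stromal markers reached at most 45.9 CPM in any gate or in the ungated cells. GNLY itself held a UMI in 37.2% of CD8B gate cells and 39.4% of CD3D gate cells at day 14, below the limit of the gate, and in 3.64% of HLA-DRA gate cells at day 10. A CD8B UMI was found in 1.42% of HLA-DRA gate cells at day 10. The GNLY gate of day 14 was mixed as well, with a CD3D UMI in 100% of its cells and a CD8B UMI in 35.3%. Its T cell markers summed to 5615 CPM, against 6362 CPM in the CD8B gate. The part of free RNA and doublets in the levels by gate was not tested.

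**Figure D4:**
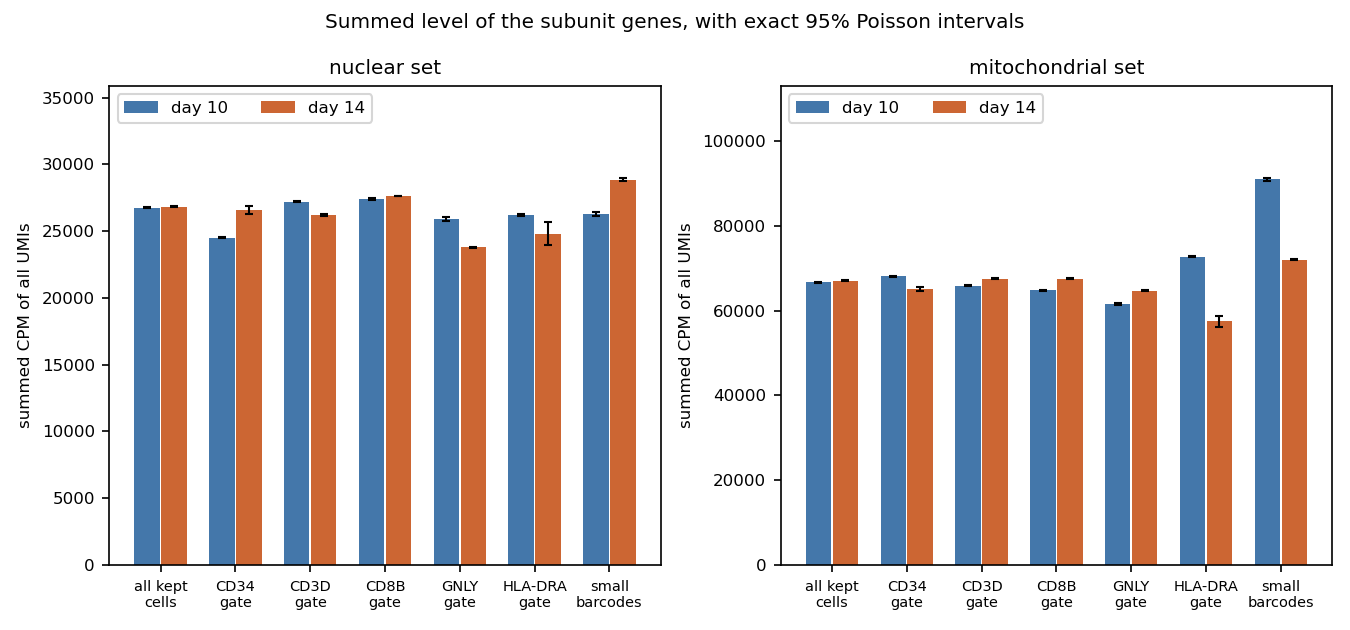
Summed CPM of the 90 nuclear (left) and 13 mitochondrial (right) genes (y axis from 0) by gate at day 10 and day 14, with exact 95% Poisson intervals as error bars. Nuclear bars are lowest in the CD34 gate among the gates of day 10 and in the GNLY gate among those of day 14, and the mitochondrial bar of the barcodes of 1 to 100 UMIs is the tallest at day 10.

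The HLA-DRA gate of day 10 had the highest mitochondrial level among the gates. Its mitochondrial set stood at 72700.3 CPM (72587 to 72814), a log2 ratio of 0.14 over the CD3D gate that was 0.38 with scaling by the median ratio and 0.077 with gates of 1 UMI, and complex IV carried most of the difference, with MT-CO1 at 10354 against 7866 CPM (0.40) and MT-CO2 at 13317 against 11478 CPM (0.21). The nuclear set stood at 26224 CPM, a ratio of -0.054 that turned to 0.18 with scaling by the median ratio, which moved the median of all genes by 0.22. Relative to the median of all genes, which was -0.19, the nuclear members with a median of -0.069 stood higher in this gate. Only NDUFV3, an accessory subunit of complex I, was called higher (94.0 against 59.7 CPM, log2 ratio 0.61) and 0 nuclear members were called lower, against 14.5% and 17.4% of all genes. ATP5F1E was next (908 against 624 CPM, 0.54), and NDUFA5 (-0.54), NDUFB9 (-0.52) and NDUFB6 (-0.50) were the lowest. This comparison and that of the CD34 gate share the CD3D gate.

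At day 14 the GNLY gate had the lowest nuclear level of the 5 gates. Its nuclear set stood at 23786 CPM (23726 to 23847), against 27643 CPM (27612 to 27674) in the CD8B gate, a log2 ratio of -0.22. Scaling by the median ratio moved the median of all genes by 0.10 and gave -0.10, and a gate of 1 UMI gave -0.076. Complex II stood lowest, with a log2 ratio of -0.46, and the other nuclear-encoded complexes lay between -0.22 and -0.19. ATP5F1B (358 against 593 CPM, -0.72), SDHB (63.7 against 100.3 CPM, -0.62), ATP5F1A (267 against 412 CPM, -0.61) and NDUFB8 (339 against 512 CPM, -0.59) were called lower. Of these, ATP5F1B is the catalytic beta subunit and ATP5F1A the alpha subunit of the ATP synthase head. Of all genes 6.24% were called lower and 9.07% higher, against 0 nuclear members higher. With scaling by the median ratio ATP5F1B alone was called lower, against 4.49% of all genes. NDUFS8 (0.17), ATP5ME (0.082) and ATP5F1D (0.052) were the highest. The GNLY gate was the shallower, with a median of 11920 UMIs per cell against 16846, and after each cell was thinned to 5000 UMIs the log2 ratio was -0.23. Killer cell markers summed to 16510.3 CPM in the GNLY gate and 565 CPM in the CD8B gate. Of these sums GNLY itself, which set the gate, gave 11235 and 31.8 CPM. The mitochondrial set differed less (64751 against 67600.5 CPM, log2 ratio -0.062), and that sign turned with scaling by the median ratio.

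None of the 13 mitochondrial genes passed 1.5-fold between the days over all kept cells, although MT-ND6 did so with scaling by the median ratio (0.62), and 4 stood above the rest. MT-ND6, a complex I subunit, stood at 382 CPM (interval 380 to 385) at day 10, against 561 CPM (557 to 565) at day 14, a log2 ratio of 0.55. MT-CO1, the catalytic subunit of complex IV, stood at 8185 and 11638 CPM (0.51), and MT-ND3, a small complex I subunit, at 2463 and 3474 CPM (0.50). MT-ATP8, of the ATP synthase membrane part, stood at 10.5 and 15.6 CPM (0.41). MT-CYB, the only mitochondrial gene of complex III, stood at 7965 and 6624 CPM (-0.27), and the large complex I genes MT-ND5 and MT-ND4 at 1507 and 1200.3 CPM (-0.33) and at 6482 and 5403 CPM (-0.26). Within gates MT-CO1 was called higher at day 14 in the CD3D gate (0.65) and the GNLY gate (0.63), and MT-ND3 in the CD8B gate (0.59) and the GNLY gate (0.67), while MT-ND6 stood at 1.07 in the CD34 gate with its 43 cells at day 14. The remaining 6 genes lay between -0.20 for MT-ND4L and 0.049 for MT-ATP6. MT-ND1 stood at 3875 and 3523 CPM (-0.14), MT-ND2 at 1623 and 1555 CPM (-0.062), MT-CO3 at 14874 and 13393 CPM (-0.15), and MT-CO2 at 11660.3 and 11803 CPM (0.018).

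MT-ATP8 and MT-ATP6 overlap, as do MT-ND4L and MT-ND4 by 7 bases, so reads in the overlap cannot be assigned to 1 gene of a pair, and MT-ATP8 and MT-ND4L had the fewest UMIs of the 13. The overlap of the first pair spans 46 bases of the GRCh38 mitochondrial genome, chrM:8527-8572 on the plus strand. It is shown because it is the stretch that both genes share, with the start codon of MT-ATP6 and the stop codon of MT-ATP8 in capitals.
MT-ATP8 and MT-ATP6 overlap: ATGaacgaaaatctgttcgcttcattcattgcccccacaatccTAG
MT-ND6, from 14149 to 14673, is annotated on the minus strand, and the other 12 on the plus strand.

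MT-ND6 also differed most between gates. At day 10 it stood at 158 CPM in the HLA-DRA gate, 249 CPM in the CD34 gate, 361 CPM in the GNLY gate, 432 CPM in the CD3D gate and 457 CPM in the CD8B gate, and the intervals of neighbouring gates did not overlap. Its log2 ratio over the CD3D gate was -1.42 in the HLA-DRA gate and -0.78 in the CD34 gate, and it was the only mitochondrial gene past 1.5-fold in either comparison. At day 14 it stood at 386 CPM in the GNLY gate, 467 CPM in the CD3D gate, 528 CPM in the CD34 gate and 619 CPM in the CD8B gate, again without overlap of neighbouring intervals. The 10 cells of the HLA-DRA gate stood at 326 CPM (235 to 441), an interval that spans the level of the GNLY gate. The ratio of the GNLY gate over the CD8B gate was -0.67, past 1.5-fold with total scaling but at -0.56 with scaling by the median ratio. The other 12 mitochondrial genes lay between -0.21 and 0.23 in that comparison, with MT-CO1 the highest.

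**Figure D5:**
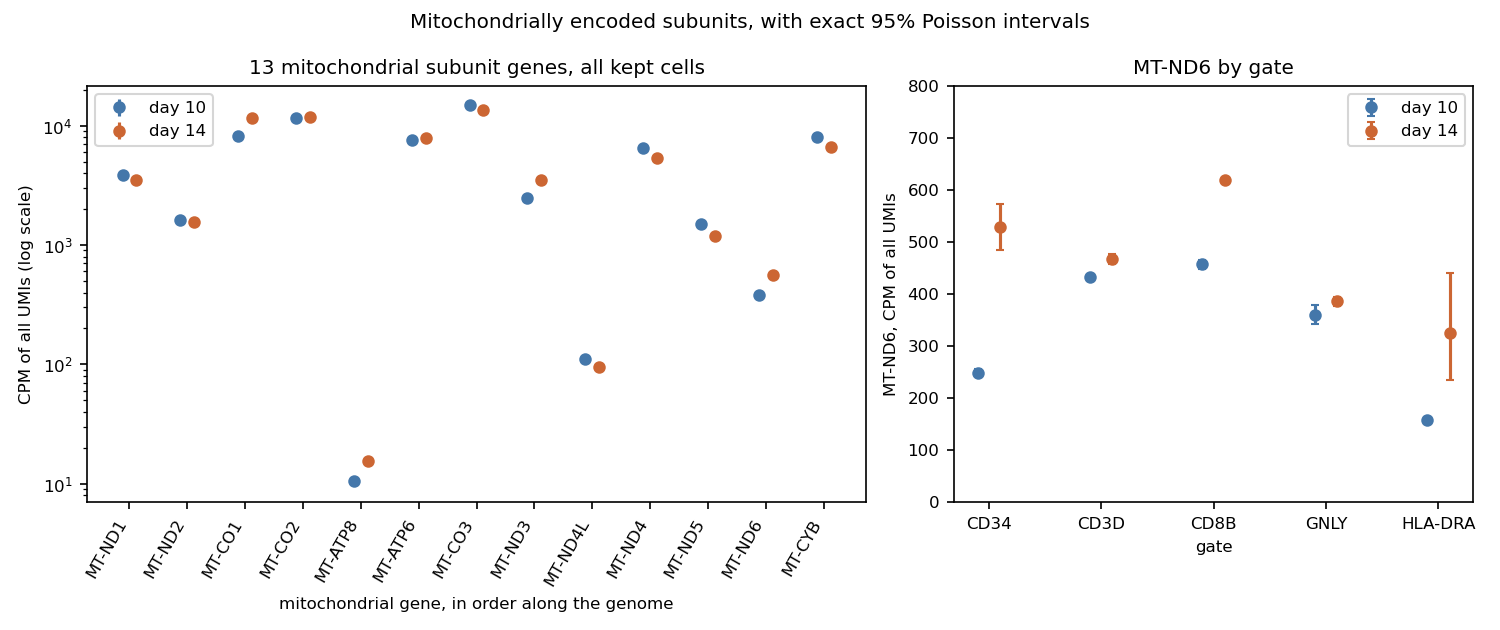
Left, CPM (log scale) of the 13 mitochondrial subunit genes, in order along the genome, at day 10 and day 14, and right, CPM of MT-ND6 by gate, both with exact 95% Poisson intervals as error bars. MT-ND6 is lowest in the HLA-DRA gate, at 158 CPM at day 10, and highest in the CD8B gate, at 619 CPM at day 14.

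The mix of gates differed between the days, with the HLA-DRA gate at 10.4% of cells at day 10 and 0.112% at day 14 and the GNLY gate at 2.56% and 20.1%. Without the cells of these 2 gates the log2 ratio between the days was 0.030 for the nuclear set and 0.032 for the mitochondrial set. With that choice of cells 8 nuclear members were called higher and 2 lower, and the share of all genes called was not counted. In the upper tercile of cells by UMIs, cut within each day, the nuclear set took a median of 2.69% of UMIs at day 10 and 2.77% at day 14. In the middle tercile it took 2.72% and 2.59%, and in the lower tercile 2.63% and 2.42%. The terciles were not matched in depth, with medians of 10776.5 and 8483 UMIs in the lower and 23530 and 26141.5 in the upper. The part of depth in the order of the days was not tested.

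Genes that build or feed the chain were read from 6 lists, beside the 12% called higher and 9.63% called lower over all genes. The lists were read with total scaling only, and their calls with the median ratio were not counted. Of 45 assembly factors past 10 CPM, 2 were called higher and 10 lower (median -0.19). COX17, a copper chaperone of complex IV, stood at 133 and 209 CPM (0.64), and PET100, also of complex IV, at 78.9 and 151 CPM (0.89). SCO2, which delivers copper to complex IV, stood at 59.9 and 29.8 CPM (-0.90), and BCS1L, which inserts the Rieske protein into complex III, at 20.5 and 8.83 CPM (-0.88). Among 9 other chain components, CYCS, which encodes cytochrome c, was the 1 called lower, at 451 and 252 CPM (-0.83), and 0 were called higher (median -0.14). Cytochrome c1, CYC1, stood at 216 and 144 CPM (-0.57), short of the limit.

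The protein import machinery was the list with the largest share of lower calls. Of its 22 members 11 were called lower and 0 higher, with a median of -0.58. Of those called lower, TIMM44 (-0.60) and TOMM5 (-0.61) lay closest to the limit. TOMM40, the pore of the outer membrane, stood at 234 and 99.99 CPM (-1.19), and TIMM13, TIMM8A and TOMM22 at 378 and 196 CPM (-0.93), 38.0 and 18.1 CPM (-0.90) and 226 and 139.5 CPM (-0.68). Of 17 citric acid cycle genes 2 were called lower and 0 higher (median -0.29). PDHA1, a subunit of pyruvate dehydrogenase, which feeds the cycle, stood at 110.4 and 67.3 CPM (-0.67) and was among those called lower.

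Of 23 genes for mitochondrial transcription and replication 0 passed the limit in either direction (median -0.22). TFAM, which packages mitochondrial DNA, stood at 84.4 and 86.3 CPM (0.030), and POLRMT, the mitochondrial RNA polymerase, at 17.1 and 10.4 CPM (-0.52). Of 7 regulators past 10 CPM, PPRC1, a coactivator of the PGC-1 family, was the 1 called lower, at 21.0 and 10.7 CPM (-0.73), and 0 were called higher (median 0.00084). GABPA stood at 18.2 and 26.7 CPM (0.45). NRF1 stood at 7.14 and 8.68 CPM, under the level limit. PPARGC1A, the coactivator PGC-1 alpha, was near absent at 0.0095 and 0 CPM.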

How the data were processed

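Per the labels and the study's methods, CD7+ cells derived from H1 cells were sorted and sequenced by droplet, 1 library per day. The authors aligned reads to GRCh38 and counted UMIs with Cell Ranger 4.0.0 (submitters' processing notes), and the deposited matrices hold raw counts for all barcodes, with no normalization. Cells were kept at 1000 to 7000 genes and at most 18% mitochondrial UMIs. Counts were summed over cells and scaled to CPM with exact 95% Poisson intervals (Python 3.11.15, scipy 1.17.1, numpy 2.4.6, pandas 2.3.3). No doublet caller was run. Depth per day is given in the report. Coordinates and coding lengths come from GENCODE on GRCh38 and promoters from RefSeq. Free RNA in droplets was not removed.

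Named genes were all 13 mitochondrial genes, the 3 highest and 3 lowest ratios of each complex and gate comparison, isoforms, and up to 4 genes of each list. UQCRHL, ATP5MGL and the noncoding members, and further genes that a count named, were added after values were seen. Members, gates and lists were chosen with earlier results of these data known. Gating and scaling alternatives are given in the closing section. The ratio step was tested on simulated data. Some genes that the rule would name are not reported here.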

Additional observations from a re-analysis of the deposited data

Results flagged for a closer look

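Barcodes of 1 to 100 UMIs, which enter no comparison of cells, carried the chain as well. The mitochondrial set stood at 90968 CPM at day 10, against 72055 CPM at day 14, above the levels in kept cells, and the nuclear set at 26268 CPM and 28842 CPM.

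In some gate contrasts the sets took opposite signs on the 2 days, and the difference between the days was not tested. The nuclear log2 ratio of the CD34 gate over the CD3D gate was -0.15 at day 10 and 0.019 at day 14. The mitochondrial ratio of the same gates was 0.048 at day 10 and -0.050 at day 14. Over the CD8B gate, the mitochondrial ratio of the CD34 gate was 0.072 at day 10 and -0.052 at day 14. The CD34 gate of day 14 had 43 cells, and T cell markers summed to 5614 CPM there, against 1956 CPM at day 10.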

How the results depend on the processing

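Each choice was changed alone. Intervals cover counting error only and are narrow, so small moves pass them. Between the days, the nuclear log2 ratio was -0.011 with scaling to UMIs outside mitochondrial and ribosomal protein genes, 0.077 with the median ratio, -0.022 without the 10% deepest cells, -0.028 after thinning and 0.030 without HLA-DRA and GNLY gate cells. In the same order the mitochondrial ratio was -0.0049, 0.082, -0.0089, -0.0087 and 0.032. It was -0.017 with at most 10% mitochondrial UMIs, 0.016 with no such limit and 0.012 with at least 2000 genes per cell. Nuclear members called lower numbered 1 with the median ratio, 2 without HLA-DRA and GNLY gate cells and 1 with a 2-fold limit, where 2 were called higher. Of all genes 7.94% were called lower with the median ratio, and the share was not counted for the other choices. The counts stayed within 1.5 times at other levels and with a pseudocount of 1 CPM.

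For the CD34 over the CD3D gate, the nuclear and mitochondrial ratios were -0.068 and 0.13 outside mitochondrial and ribosomal protein genes, -0.061 and 0.14 with the median ratio, -0.18 and 0.044 without the deepest cells, -0.17 and 0.043 after thinning, -0.16 and 0.052 with 1 UMI for every gate, -0.17 and 0.038 with gates set on thinned cells, and -0.13 and 0.043 with overlapping gates. The mitochondrial ratio was 0.052 both outside the mitochondrial genome and with at most 10% mitochondrial UMIs.

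For the HLA-DRA over the CD3D gate, they were -0.043 and 0.15 outside the mitochondrial genome, -0.015 and 0.18 outside mitochondrial and ribosomal protein genes, 0.18 and 0.38 with the median ratio, -0.068 and 0.17 after thinning, -0.045 and 0.077 with 1 UMI, and -0.034 and 0.13 with overlapping gates. The nuclear ratio was -0.049 with gates set on thinned cells. The mitochondrial ratio was 0.13 with at most 10% mitochondrial UMIs and 0.16 without the deepest cells.

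For the GNLY over the CD8B gate, they were -0.22 and -0.067 outside the mitochondrial genome, -0.10 and 0.056 with the median ratio, -0.21 and -0.058 with at least 2000 genes, -0.076 and -0.016 with 1 UMI, and -0.20 and -0.056 with overlapping gates. The nuclear ratio was -0.23 after thinning. The mitochondrial ratio was -0.070 with at most 10% mitochondrial UMIs, -0.058 with no limit, -0.051 without the deepest cells and -0.046 with gates set on thinned cells. The cause of these moves was not tested. No paired analysis was possible because each day has 1 library.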
